A study of Mus musculus with 24 samples.

Results

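Oxidative phosphorylation (OXPHOS) subunit genes of the nucleus were measured in cardiomyocyte (CM) nuclei of the postnatal mouse heart and are described here by respiratory complex. A member is a protein-coding gene whose mouse symbol starts with Nduf and a letter of a, b, c, s or v before a digit (complex I), is Sdha, Sdhb, Sdhc or Sdhd (complex II), or starts with Uqcr (complex III), with Cox and a digit from 4 to 8 (complex IV) or with Atp5 (complex V), without pseudogenes. The rule found 88 of the 56923 gene identifiers of the count files, of which 39 belong to complex I, 4 to complex II, 8 to complex III, 18 to complex IV and 19 to complex V. They carry 87 symbols, because 2 identifiers are both named Atp5po. The longer of these (ENSMUSG00000116933, chr16:91481286-91723870, minus strand, GRCm39) spans 242.59 kb, lies opposite to Itsn1 over 78.9% of its length and also covers Cryzl1 and Donson on its own strand, so its reads are uncertain. It is called the long Atp5po below. Ndufa4 is counted under complex I by its symbol, although its protein is now regarded as a subunit of complex IV.

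RNA was read from PCM1-sorted CM nuclei of C57BL/6N mice at postnatal days 1, 7 and 14 (P1, P7 and P14). Control mice were XMLC2(-)Casp2(fl/fl), with floxed Casp2 alleles and no Cre. Casp2-depleted mice were XMLC2(+)Casp2(fl/fl), with the same floxed alleles and a Cre recombinase driven by the cardiac XMLC2 promoter, so that Cre and the loss of Casp2 come together and cannot be told apart. Each group held 4 libraries, each from a pool of 15 hearts at P1, 6 hearts at P7 or 2 hearts at P14. The study used mice without regard to sex, and the sex of the hearts in a pool is not given. The study excluded 3 of the 24 libraries on quality grounds, which leaves 21. These were replicate 1 of the P1 control group, replicate 3 of the P14 control group and replicate 1 of the P14 Casp2-depleted group. The P14 libraries among them had few detected genes. In the P1 library, genes at a high level were enriched for sets of mitochondria, ribosomes and translation. The study took this as a sign of cytoplasmic contamination. The study calls each pool a biological replicate, and p-values measure the spread between these libraries.

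Complex I (NADH dehydrogenase) and complex II (succinate dehydrogenase) pass electrons to coenzyme Q, complex III (cytochrome bc1) passes them on to cytochrome c, and complex IV (cytochrome c oxidase) hands them to oxygen. Complexes I, III and IV pump protons, and complex V (ATP synthase) uses the gradient to make ATP. After birth the heart moves from glycolysis to fatty acid oxidation, and several complex IV subunits are known to switch from a widely expressed isoform to a muscle isoform. The RNA measured here came from sorted nuclei, so a level does not stand for the mature RNA of the cell. RNA from outside the nucleus may be included, because mitochondrially encoded genes also had reads.

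The 21 libraries held 891817 to 2924097 reads on genes, and between 34.3 and 76.1% of their uniquely placed reads lay on no gene. This share was 34.3 to 64.3% in the P7 libraries and 63.7 to 76.1% in the P14 libraries, which also had fewer genes with a read (7628 to 13651, against 14006 to 17770 at P7). All 8 CM markers examined (such as Tnnt2, Ryr2 and Myl2) had reads in each of the 6 groups. Casp2 itself had no read in any P1 or P14 library, and at P7 it had 5, 3, 1 and 0 reads in control and 5, 3, 0 and 0 in Casp2-depleted libraries, so at this depth it does not check the genotype labels. The left-out P1 control replicate 1 gave 0.762% of its reads to OXPHOS genes, against 0.144 to 0.233% in the other P1 control libraries.

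OXPHOS genes together were highest at P7 in control nuclei and lowest at P14 in both genotypes. Levels are given in CPM, reads of a gene relative to all reads on genes in its library after scaling by the trimmed mean of M values (TMM). The summed CPM of the 88 genes was 1072, 2259 and 2399 in the P1 control libraries, 4376, 3729, 2960 and 2390 at P7, and 1856, 853 and 1075 at P14. Every P7 control library but the lowest therefore lay above all P1 control libraries, and no P14 control library reached the P7 range. In Casp2-depleted nuclei the sums were 3591, 1311, 1649 and 4208 at P1, 4185, 2698, 2490 and 1820 at P7, and 1058, 1011 and 976 at P14. The P1 and P7 libraries of this genotype overlapped widely and the P14 libraries lay below both. These are sums over chosen genes and are given without a p-value. Fewer CM nuclei in a pool and less RNA per nucleus cannot be told apart in such libraries.

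**Figure D1:**
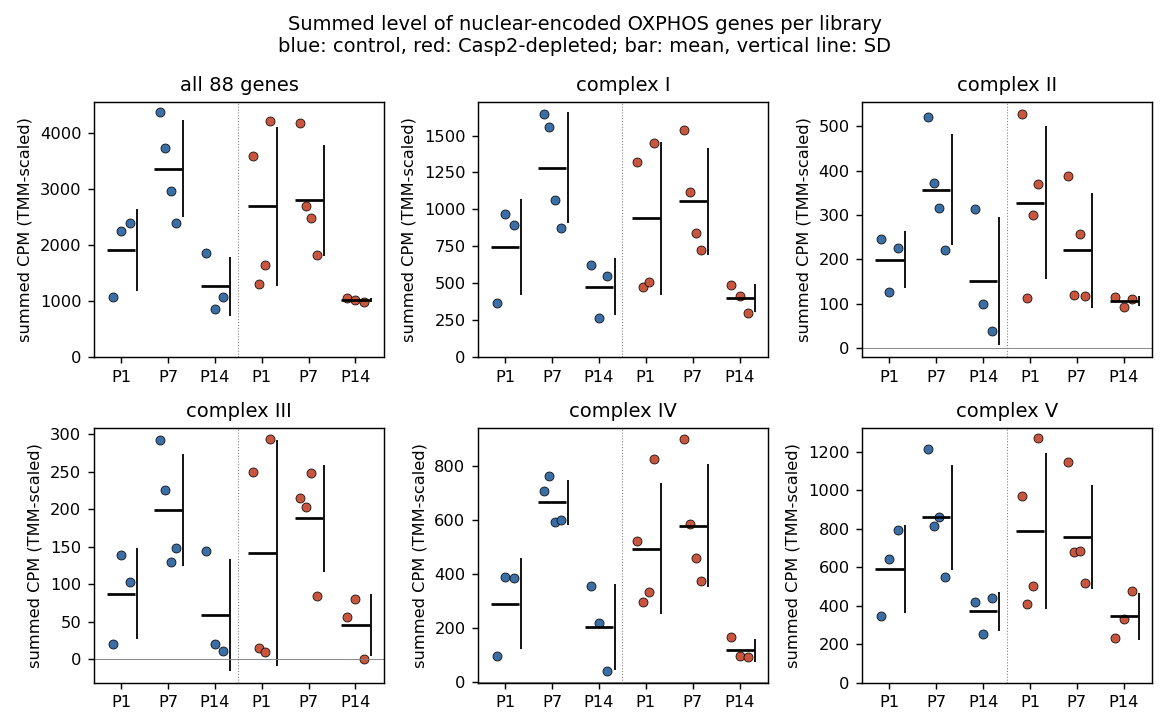
Summed CPM (y axis) of all 88 OXPHOS genes and of complexes I to V by day (x axis), with 1 point per library (blue, control; red, Casp2-depleted), the group mean as a bar and the SD as a vertical line. The P14 libraries lie below the P7 libraries in most panels, and complex IV is the panel in which P7 control separates from both P1 and P14 control.

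By complex, the ratio of P14 to P7 was lowest for complexes III and IV, an order that rested on single libraries in control nuclei. In control nuclei the group mean of the sum changed from P7 to P14 by a log2 ratio of -1.43 for complex I, -1.25 for complex II, -1.77 for complex III, -1.70 for complex IV and -1.21 for complex V. The 2 groups did not overlap for complexes I, IV and V. Without P14 control replicate 4 the control ratios were -1.54, -0.79, -1.28, -1.21 and -1.35, so that complexes I and V were lowest, and without P14 control replicate 1 they were -1.67, -2.37, -3.69, -2.36 and -1.31. In Casp2-depleted nuclei the ratios were -1.40, -1.06, -2.05, -2.29 and -1.13 in the same order, and no complex overlapped between P7 and P14. Complexes III and IV had the lowest ratios of this genotype whichever of its 7 libraries was left out. All these sums of complex V hold the long Atp5po, whose reads are uncertain. Without it the ratio of complex V was -1.48 in control and -1.62 in Casp2-depleted nuclei, below that of complex I in both. The order without both the long Atp5po and a library was not computed. The complexes were set side by side only, and a difference between them was not tested. Complex III was at 0 in P14 Casp2-depleted replicate 4, and its 8 genes held only 15 reads in P14 control replicate 4.

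Complex IV was the complex that separated most often between days. Its summed CPM was 94.6, 387 and 386 at P1, 707, 760, 591 and 599 at P7 and 357, 218 and 40.1 at P14 in control nuclei. In Casp2-depleted nuclei it was 523, 297, 332 and 823 at P1, 897, 583, 460 and 375 at P7 and 167, 94.7 and 92.6 at P14. The control mean was 2.30-fold higher at P7 than at P1 and 3.24-fold lower at P14 than at P7, without overlap at either step, while the Casp2-depleted P1 and P7 groups overlapped and the P14 group lay 4.90-fold below P7. The control step from P7 to P14 was 5.15-fold without P14 control replicate 1 and 2.31-fold without P14 control replicate 4. With the left-out P1 control replicate 1 included, the log2 ratio of P7 to P1 in control nuclei was 0.0116 for complex IV, against 1.20 without it.

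The size of the P14 step depended on scaling. TMM factors were above 1 in all P14 libraries (1.11 to 1.57) and below 1 in all P7 libraries (0.575 to 0.983), and the median log2 fold change of all tested genes from P7 to P14 was -0.75 in control and -0.61 in Casp2-depleted nuclei. As a plain share of reads on genes, OXPHOS genes took 0.253% at P7 and 0.159% at P14 in control nuclei (log2 ratio -0.67, groups overlapping) and 0.223% and 0.144% in Casp2-depleted nuclei (log2 ratio -0.63, no overlap). On this scale complex IV was the complex whose P7 and P14 groups did not overlap in either genotype, with 0.0498% at P7 and 0.0246% at P14 in control (2.02-fold lower) and 0.0459% and 0.0163% in Casp2-depleted nuclei (2.82-fold lower). Complex I also stayed apart in Casp2-depleted nuclei (log2 ratio -0.58), whereas complexes II, III and V overlapped in both genotypes.

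**Figure D2:**
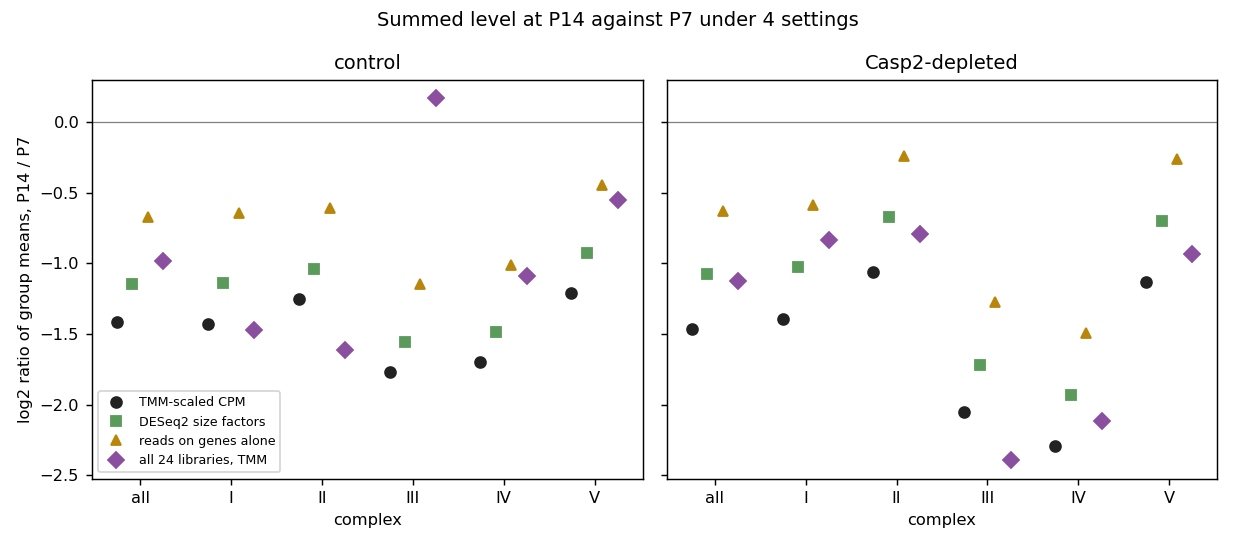
Log2 ratio of the P14 to the P7 group mean of the summed level (y axis) for all OXPHOS genes and each complex (x axis), under 4 settings shown by marker shape and colour, for control (left) and Casp2-depleted nuclei (right). The ratios are below 0 in every case but complex III in control nuclei with all 24 libraries (0.17), and they are closest to 0 for complexes II and V by reads on genes alone in Casp2-depleted nuclei (-0.24 and -0.26).

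Fewer OXPHOS genes were detected at P14. At least 1 read was found for 25, 60 and 60 of the 88 genes in P1 control libraries, 78, 78, 73 and 64 at P7 and 32, 36 and 22 at P14. The Casp2-depleted libraries held 74, 35, 41 and 73 at P1, 82, 61, 65 and 60 at P7 and 40, 30 and 24 at P14. The P14 libraries all lay below the P7 libraries. Thinning each library in expectation to 891817 reads gave 31.7, 35.5 and 22.0 genes at P14 in control, and 62.1 to 77.3 at P7. Detected members held a median of 18.5 to 72.5 reads in the P14 libraries, so this thinning could remove few of them. It therefore does not decide what part library quality had in the detection. Of the 88 genes, 59 had reads in every P7 control library and 11 in every P14 control library, namely Ndufa10, Ndufb2, Ndufs1, Ndufs4, Ndufs5, Ndufv3, Sdhc, Cox7c, Atp5me, Atp5mg and the long Atp5po. Only Ndufs4, Ndufs5, Sdhc and the long Atp5po had reads in all 21 libraries. The share of all genes with reads in every library was not computed.

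Of 80 tested members, 27 in control and 26 in Casp2-depleted nuclei had reads at P7 and none at P14, against 23.0 and 22.6% of all genes. A group of 16 members had reads in both P7 groups and none in either P14 group. Among them are the complex I genes Ndufa4, Ndufa5, Ndufa6, Ndufa8, Ndufb9 and Ndufs8, the complex III genes Uqcr11, Uqcrb, Uqcrfs1 and Uqcrq, the complex IV genes Cox5b, Cox6b2, Cox7a2 and Cox8b, and Atp5mj of complex V. Ndufs8 and Uqcrfs1 (the Rieske iron-sulfur protein) belong to the catalytic cores. The 3 genes Ndufa13, Ndufa4l2 and Cox8c had no read in any of the 24 libraries. Ndufa13 and Ndufb8 are overlapped on the same strand by another gene over 94.4 and 98.6% of their length, and Ndufb8 had reads in P1 Casp2-depleted replicate 4 (11.0 CPM) and P7 Casp2-depleted replicate 1 (7.93 CPM) alone. The part of this overlap in their counts was not tested. The 5 highest members of a library held 33.9 to 60.8% of its OXPHOS reads at P14 and 25.2 to 34.3% at P7. At P1 they held 62.1% in control replicate 2 and 51.4 and 46.5% in Casp2-depleted replicates 2 and 3, and 24.9 to 31.4% in the other 4 libraries, so that such concentration was also seen in P1 libraries with few detected members.

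**Figure D3:**
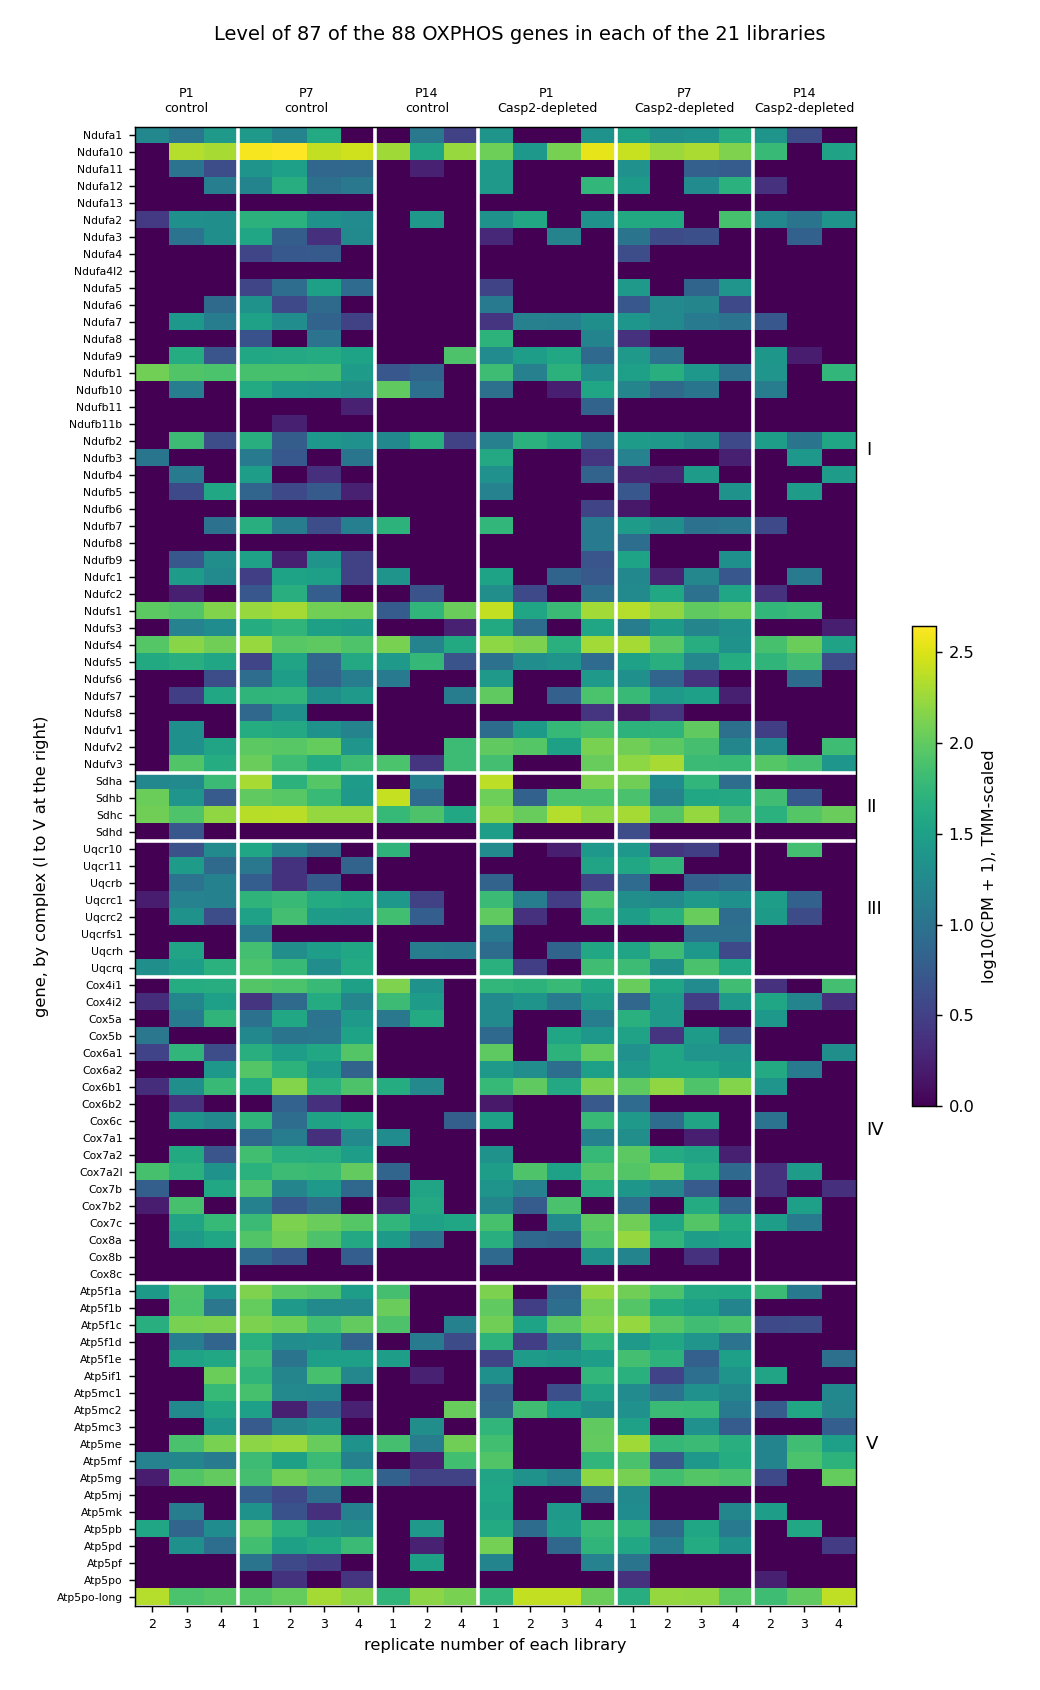
Level of 87 of the 88 OXPHOS genes (rows, grouped by complex I to V) in each of the 21 libraries (columns, by group and replicate number), as log10(CPM + 1) by colour. Dark cells hold no reads and are most frequent in the P14 columns, where 22 to 40 of the 88 genes had a read.

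The number of members detected and their summed CPM moved with the fraction of reads outside genes, and its part in the results was not tested. The summed CPM was 2390 to 4376 in the 8 P7 libraries except for P7 Casp2-depleted replicate 4 (1820 CPM), which also had the highest share of reads on no gene among them (64.3%). P14 control replicate 1, with nearly the same share (63.7%), had a sum of 1856 CPM. P1 control replicate 2 (73.9% on no gene, 1072 CPM) lay within the range of the P14 libraries. When that fraction entered the fit of all genes as a covariate, 27 of 80 tested members in control and 35 of 80 in Casp2-depleted nuclei had a P14 level above that of P7 (37.0 and 40.7% of all genes), against 8 and 10 without it (35.2 and 37.3%).

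**Figure D4:**
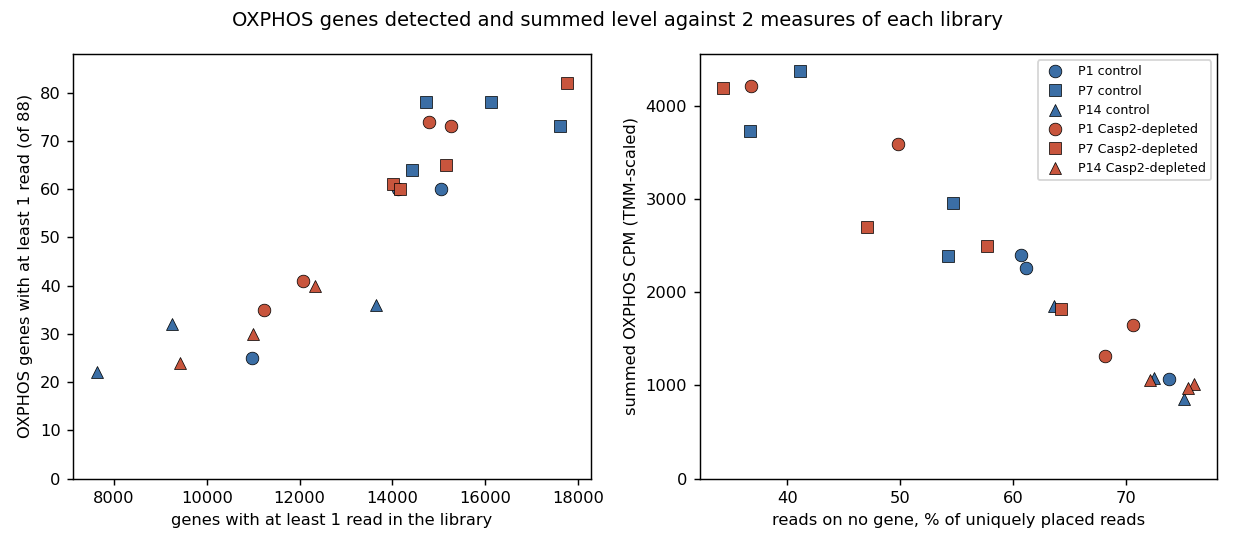
Left, OXPHOS genes with at least 1 read (y axis, of 88) against all genes with at least 1 read (x axis) in each library. Right, summed OXPHOS CPM (y axis) against the percent of uniquely placed reads on no gene (x axis), with colour for genotype and marker shape for day. P14 libraries (triangles) sit at 7628 to 13651 detected genes and at 63.7 to 76.1% of reads on no gene, where sums are low for P1 and P14 libraries alike.

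From P1 to P7, OXPHOS genes of control nuclei were mostly above 0 in log2 fold change in the 21 libraries, but none passed the test. The fitted log2 fold change was above 0 for 70 of the 80 members tested, against 55.0% of all genes, with a median of 1.27 (0.21 over all genes). By complex these were 29 of 33 genes of complex I, 3 of 4 of complex II, 6 of 8 of complex III, 15 of 17 of complex IV and 17 of 18 of complex V. All 8 CM markers were above 0 as well (median 1.42), with summed levels of 17162 to 53301 CPM at P1 and 65248 to 142380 at P7. Above 0 were 5 of 8 fibroblast, 4 of 8 endothelial, 4 of 7 mural, 0 of 5 macrophage and 3 of 5 erythroid markers. Of 16 TCA cycle enzymes 15 were above 0 (median 1.33). The part of CM content in this step was not tested. edgeR's quasi-likelihood test called 0 of 80 members where it called 0.00982% of all genes, 3 members had an unadjusted p under 0.05 (all higher, 4.52% of all genes), and DESeq2 and limma-voom also called 0 (0.432 and 0.241% of all genes). The groups did not overlap for 12 members that were higher at P7 (6.9% of all genes did so) and for Ndufb1, which was lower (2.86%). Without P1 control replicate 2, the library with 25 detected members, 73.8% of the members were above 0 (54.7% of all genes), and with the fraction of reads outside genes as a covariate 46.2% were (53.3%). With all 24 libraries the direction turned, with 33 of 82 members above 0 (52.1% of all genes) and a median of -0.25.

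Among the members that separated P1 from P7 in control nuclei were 3 with few reads. Cox7a1, the heart and skeletal muscle isoform of subunit 7a, had 0 reads in the 3 P1 control libraries and 6.78, 12.2, 1.31 and 16.5 CPM at P7 (at least 12.7-fold higher, adjusted p = 0.626). The left-out P1 control replicate 1 had 201 reads of Cox7a1, and with all 24 libraries its log2 fold change turned to -0.78. Ndufa5, an accessory subunit of complex I, had 0 reads at P1 and 2.61, 7.91, 30.7 and 7.48 CPM at P7 (at least 17.2-fold higher, adjusted p = 0.626, or at least 8.13-fold without P7 control replicate 3). Ndufs6, which takes part in the last steps of complex I assembly, had 0, 0 and 3.17 CPM at P1 and 7.82, 28.8, 5.87 and 11.97 at P7 (log2 fold change 3.61 ± 2.85 SE, adjusted p = 0.815), and its log2 fold change also turned with all 24 libraries (-0.24). None of these separations remained in Casp2-depleted nuclei, where no member separated P7 from P1 in either direction (1.48% of all genes did so upwards and 0.476% downwards).

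In Casp2-depleted nuclei the members did not move together from P1 to P7. Of 80 members 44 were above 0, close to the 52.5% of all genes, and the median was 0.11 (0.07 over all genes). edgeR, DESeq2 and limma-voom each called 0 members (0.0196, 0.226 and 0.0393% of all genes), and 0 members had an unadjusted p under 0.05 (5.14% of all genes higher and 2.26% lower). Whether the step from P1 to P7 differed between genotypes was tested per gene as an interaction, which called 0 of 80 members (0.0% of all genes) and left 1 member, Ndufa8, lower at an unadjusted p under 0.05 (3.85% of all genes, adjusted p = 0.622). The 4 P1 Casp2-depleted libraries fell into 2 with 73 and 74 detected members and 2 with 35 and 41.

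From P7 to P14 most members were lower in both genotypes, and a few passed the test. The fitted log2 fold change was below 0 for 71 of 80 members in control nuclei, against 62.2% of all genes, and for 70 of 80 in Casp2-depleted nuclei, against 60.1%. The median was -2.39 in control and -2.45 in Casp2-depleted nuclei, or -2.21 and -2.09 with genes at 0 reads set to their bound of 3 reads. In control nuclei 3 members were called, all lower (1.87% of all genes were called lower), and 30 members separated the days (13.5% of all genes). In Casp2-depleted nuclei 6 were called, all lower (2.82%), and 22 separated the days (10.9%). DESeq2 called 13 and 14 members lower (4.72 and 5.36% of all genes) and limma-voom 16 and 16 (5.51 and 3.9%). edgeR called 0 and 3 without TMM factors (0.462 and 1.03%) and 0 and 0 with the fraction of reads outside genes as a covariate (0.187 and 0.712%). Without P7 control replicate 1 or 2 no member was called in control nuclei (1.36 and 0.877% of all genes), and without P14 Casp2-depleted replicate 3 or 4 the count was 3 in Casp2-depleted nuclei (1.56 and 1.27%). The calls of Sdha, Cox8a and Atp5f1c in Casp2-depleted nuclei held whichever of the 7 libraries was left out. Of the other calls, that of Atp5f1b ended in 2 of 7 such fits and that of Cox7a2 in 6 of 7, that of Uqcrq in 5 of 7 in control and 4 of 7 in Casp2-depleted nuclei, and those of Cox6a1 and Atp5mg each in 6 of 7.

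Markers of other cell types were set beside this step. The summed level of the 8 CM markers was 65248 to 142380 CPM in P7 control and 9226 to 39979 CPM in P14 control libraries, with 0 of 8 markers above 0 in log2 fold change, and it was 45976 to 84590 and 10610 to 22313 CPM in Casp2-depleted libraries. The summed level of 8 fibroblast markers was 124 to 261 CPM at P7 and 156 to 252 at P14 in control nuclei, and 141 to 246 and 128 to 311 CPM in Casp2-depleted nuclei, with reads for all 8. That of 8 endothelial markers was 254 to 430 and 47.9 to 753 CPM in control, and 211 to 638 and 374 to 526 CPM in Casp2-depleted nuclei, where Cdh5 and Kdr were at 0 at P14. Macrophage markers, of which Ptprc, Cd68 and C1qa were at 0 in both P14 groups, summed to 110 to 215 and 41.6 to 299 CPM in control and to 112 to 313 and 209 to 292 CPM in Casp2-depleted nuclei. Mural markers summed to 245 to 539 and 64.8 to 328 CPM in control, with Rgs5 at 0 at P14, and to 296 to 737 and 93.3 to 207 CPM in Casp2-depleted nuclei, with Pdgfrb at 0. Erythroid markers summed to 5.74 to 80.6 and 0 to 18.2 CPM in control and to 26.1 to 95.1 and 0 to 69.8 CPM in Casp2-depleted nuclei, with Hba-a1, Hba-a2 and Hbb-bt at 0 in both P14 groups. The CM sums were thus lower at P14 without overlap, as the OXPHOS sums were, and so were the mural sums of Casp2-depleted nuclei, where Abcc9 was called lower. Of the CM markers Tnnt2, Ryr2 and Myl2 were called lower in both genotypes and Pln in Casp2-depleted nuclei (1.87 and 2.82% of all genes in control and Casp2-depleted nuclei). The median log2 fold change of the 8 CM markers was -2.27 in control and -2.45 in Casp2-depleted nuclei, against -2.39 and -2.45 for the members. The mural sums of control nuclei and the fibroblast, endothelial, macrophage and erythroid sums of both genotypes overlapped between the days. The part of CM or mural content in the result was not tested.

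Uqcrq, a small subunit of complex III, was called in both genotypes. Its CPM was 76.7, 59.7, 18.9 and 40.4 in P7 control libraries and 63.9, 19.8, 75.5 and 37.8 in P7 Casp2-depleted libraries. All 6 P14 libraries had 0 reads. The level was at least 68.9-fold lower at P14 in control (adjusted p = 0.0308) and at least 78.6-fold lower in Casp2-depleted nuclei (adjusted p = 0.019). Bounds written as at least cover counting error only and not the spread between libraries. Without P7 control replicate 1 the control bound was 53.0-fold (adjusted p = 0.0948). Without P7 Casp2-depleted replicate 3 that of Casp2-depleted nuclei was 67.8-fold (adjusted p = 0.0440). At P1 it had 19.8, 29.5 and 47.5 CPM in control and 47.1, 2.10, 0 and 67.3 CPM in Casp2-depleted libraries.

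The called members of complex IV are small subunits that surround the catalytic core. Cox6a1, the widely expressed form of subunit 6a, had 45.4, 29.5, 36.5 and 86.1 CPM at P7 and 0 reads in all P14 libraries in control nuclei (at least 65.8-fold lower, adjusted p = 0.0275). In Casp2-depleted nuclei it had 20.5, 34.8, 22.6 and 23.1 CPM at P7 and 0, 0 and 19.6 at P14 (adjusted p = 0.594). Cox8a, the widely expressed form of subunit 8, had 169, 53.8, 28.8 and 32.9 CPM at P7 and 0 reads in all P14 Casp2-depleted libraries (at least 125-fold lower, adjusted p = 0.00192, or at least 57.4-fold without P7 replicate 1). In control nuclei its 3 P14 libraries had 26.8, 8.96 and 0 CPM, below the 84.0, 118, 79.6 and 38.2 CPM of P7 (log2 fold change -2.73 ± 1.53 SE, adjusted p = 0.331). Cox7a2, the widely expressed form of subunit 7a, had 0 reads in all 6 P14 libraries, and was called in Casp2-depleted nuclei (at least 73.6-fold lower, adjusted p = 0.0459, or 0.0921 with the replicate number as a block) but not in control nuclei (at least 66.5-fold lower, adjusted p = 0.0625). Without P7 Casp2-depleted replicate 1 the bound was at least 37.3-fold (adjusted p = 0.189).

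The promoters of Uqcrq, Cox6a1 and Cox8a are shown as examples of the 6 called members that had 0 reads in a whole P14 group. Each line gives the 250 bases before the start of the canonical transcript, 5′ to 3′ on the gene's strand, from GRCm39 with GENCODE vM39 transcript starts. Uqcrq lies at chr11:53321671-53321920 (minus strand, within the gene because longer transcripts start further upstream), Cox6a1 at chr5:115487041-115487290 (minus strand) and Cox8a at chr19:7194965-7195214 (minus strand). Capitals mark a match to 1 of 4 short motifs of factors known to act on OXPHOS genes, searched on both strands, which were CGCATGCG for NRF1, CCGGAAG for ETS factors, CAAGGTCA for estrogen-related receptors and AAGATGGC for YY1. The NRF1 letters read the same on both strands, and no match overlapped a match to another motif in these windows.
Uqcrq: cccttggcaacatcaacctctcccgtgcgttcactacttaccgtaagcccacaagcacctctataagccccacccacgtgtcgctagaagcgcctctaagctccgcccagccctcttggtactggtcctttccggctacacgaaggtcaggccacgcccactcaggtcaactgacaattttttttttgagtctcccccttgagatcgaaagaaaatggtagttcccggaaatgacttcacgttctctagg
Cox6a1: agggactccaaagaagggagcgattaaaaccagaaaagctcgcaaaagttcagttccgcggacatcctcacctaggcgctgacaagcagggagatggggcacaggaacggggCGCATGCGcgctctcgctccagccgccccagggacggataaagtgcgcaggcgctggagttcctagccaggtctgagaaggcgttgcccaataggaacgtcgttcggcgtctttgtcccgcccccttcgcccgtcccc
Cox8a: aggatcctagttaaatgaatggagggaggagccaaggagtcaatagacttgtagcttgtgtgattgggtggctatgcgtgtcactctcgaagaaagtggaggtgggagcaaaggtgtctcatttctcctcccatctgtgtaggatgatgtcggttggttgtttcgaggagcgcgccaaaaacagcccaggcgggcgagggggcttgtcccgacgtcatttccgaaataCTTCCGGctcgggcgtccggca
The Cox6a1 window holds the NRF1 letters, the Cox8a window holds the ETS letters on the minus strand of the gene, and the Uqcrq window holds none of the 4. The windows of Sdha, Cox7a2 and Atp5f1b, the remaining called members with 0 reads in a whole P14 group, hold none of the 4 either. Over all 88 members, 3 windows held the NRF1 letters (3.41%, against 1.83% of 21631 protein-coding genes), 6 the ETS letters (6.82%, against 6.87%), 1 the estrogen-related receptor letters (1.14%, against 1.37%) and 0 the YY1 letters (against 1.35%). A match describes the letters and is not a measured binding site.

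Sdha, the flavoprotein that oxidizes succinate in complex II, had 116, 18.2, 53.5 and 7.71 CPM in P7 Casp2-depleted libraries and 0 reads in the 3 P14 libraries (at least 86.8-fold lower, adjusted p = 0.000652, or at least 41.0-fold without P7 replicate 1). In control nuclei it had 196, 48.9, 87.4 and 27.7 CPM at P7 and 0, 13.4 and 0 at P14, which did not overlap but missed the threshold (log2 fold change -4.30 ± 1.46 SE, adjusted p = 0.109). Sdhb, the iron-sulfur subunit, did not follow, with 255, 7.47 and 0 CPM at P14 against 25.4 to 98.6 CPM at P7 in control nuclei (adjusted p = 0.939). Sdhc, a membrane anchor with reads in all libraries, had 37.9 to 79.2 CPM at P14 and 168 to 234 CPM at P7 in control (log2 fold change -1.77 ± 0.75 SE, adjusted p = 0.265). Sdhd, the other anchor, had reads in 3 libraries only, none of them at P14.

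Complex V held 3 called members. Atp5f1c, the gamma subunit of the rotating stalk, had 169, 88.6, 67.2 and 75.0 CPM at P7 and 2.81, 3.14 and 0 at P14 in Casp2-depleted nuclei (log2 fold change -5.60 ± 1.22 SE, adjusted p = 0.000545, or -4.83 without P14 replicate 4). In control nuclei it had 131, 114, 71.1 and 101 CPM at P7 and 80.3, 0 and 13.6 at P14, so that 1 P14 library lay within the P7 range. Atp5f1b, the catalytic beta subunit, had 0 reads at P14 in Casp2-depleted nuclei (at least 71.6-fold lower, adjusted p = 0.00807, or at least 42.1-fold without P7 replicate 1) but 107.8, 0 and 0 CPM in control, where all 153 reads came from replicate 1. It lies opposite to the noncoding gene Gm47438 over its whole length. Atp5mg, the g subunit of the membrane part, was called in control nuclei, with 71.5, 119, 90.7 and 65.1 CPM at P7 and 5.64, 2.24 and 2.27 at P14 (log2 fold change -4.64 ± 1.35 SE, adjusted p = 0.0377), while P14 Casp2-depleted replicate 4 still had 103 CPM. Over all 24 libraries the fold change of Atp5mg in control turned to 1.54.

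**Figure D5:**
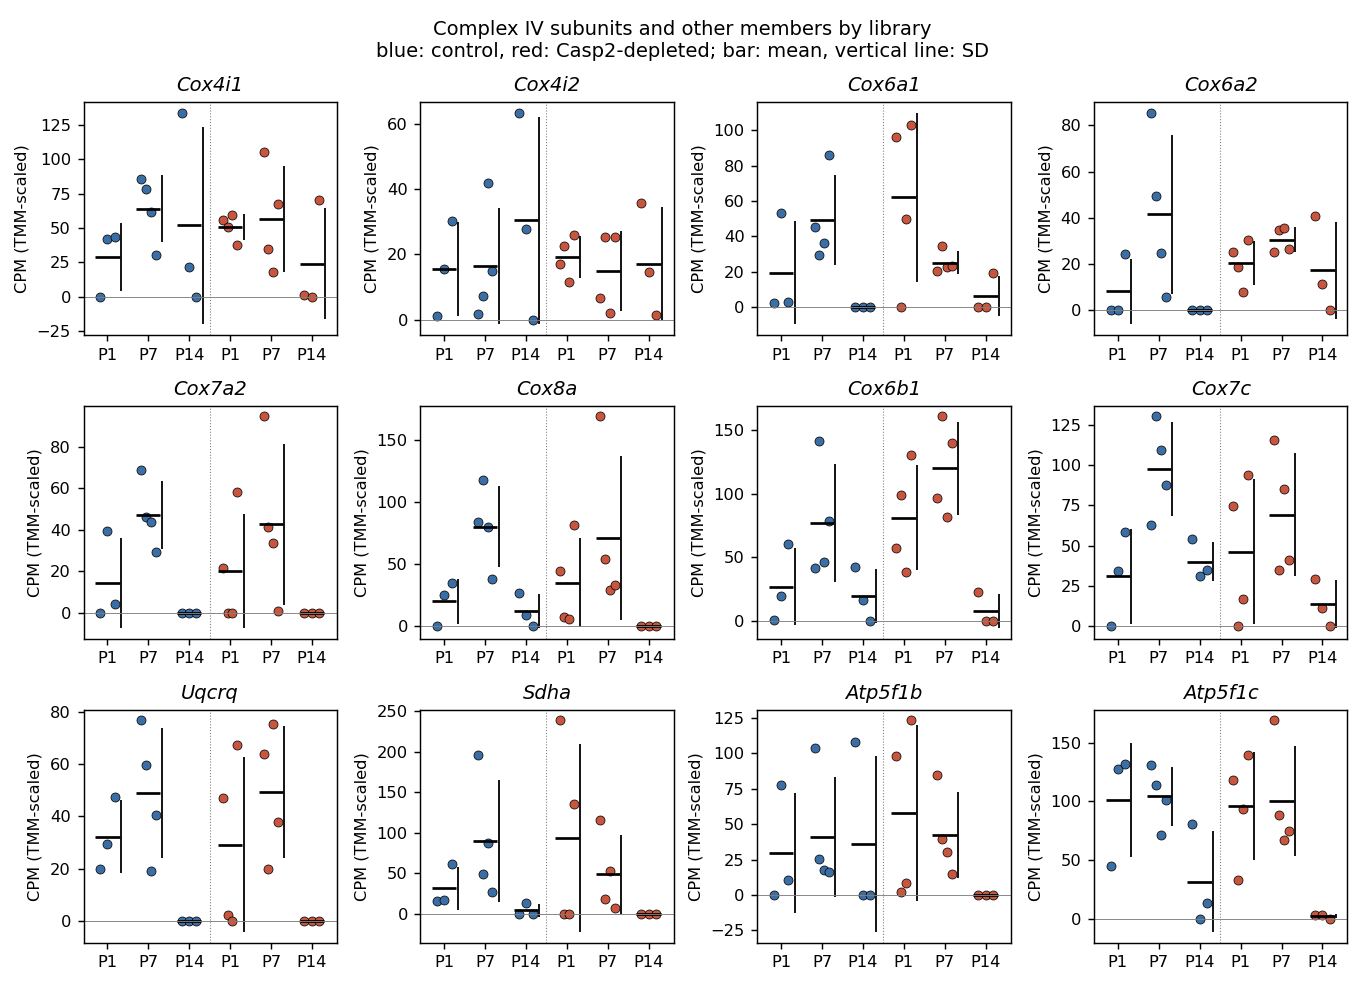
CPM (y axis) of 12 OXPHOS genes by day (x axis), with 1 point per library (blue, control; red, Casp2-depleted), the group mean as a bar and the SD as a vertical line. Cox7a2 and Uqcrq have 0 CPM in all 6 P14 libraries, whereas single P14 libraries of Cox4i1, Cox4i2 and Atp5f1b are as high as the P7 libraries or higher.

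The catalytic core of complex I was lower at P14 without passing the test. Ndufs1, the largest iron-sulfur subunit, had 170, 192, 119 and 116 CPM at P7 and 4.93, 54.5 and 109 at P14 in control nuclei (log2 fold change -1.41 ± 0.80 SE, adjusted p = 0.336), and 222, 157, 98.8 and 111 CPM against 55.4, 61.5 and 0 in Casp2-depleted nuclei (log2 fold change -1.91 ± 0.82 SE, adjusted p = 0.242). The groups did not overlap in either genotype. The noncoding gene Ino80dos covers 71.5% of Ndufs1 on the opposite strand. Ndufv1, which binds NADH and FMN, had 14.2 to 42.8 CPM at P7 and 0 reads at P14 in control (at least 41.2-fold lower, adjusted p = 0.0775). Ndufs3 and Ndufs7, subunits of the arm that hands electrons to coenzyme Q, were also separated between the days in both genotypes, with Ndufs7 at 0 reads in P14 Casp2-depleted libraries (at least 49.2-fold lower, adjusted p = 0.0593, or at least 28.2-fold without P7 replicate 1), although Gamt overlaps 50.4% of Ndufs7 on the opposite strand. Ndufv2 had P14 libraries at 0 CPM in both genotypes and others at 64.4 and 65.2 CPM, and its groups overlapped.

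Ndufa10, an accessory subunit of complex I, had 404, 439, 251 and 281 CPM at P7 and 182, 35.8 and 170 at P14 in control nuclei, without overlap (log2 fold change -1.41 ± 1.24 SE, adjusted p = 0.595). Ndufs4, an accessory subunit needed for complex I stability, was detected in every library and had P14 values of 130, 14.2 and 39.4 CPM in control and 74.4, 112 and 32.6 in Casp2-depleted nuclei. The P7 ranges were 81.6 to 172 and 21.02 to 192 CPM, so 1 of the 3 control values and all 3 Casp2-depleted values lay within them. Its log2 fold change was -0.85 ± 0.84 SE in control and -0.25 ± 0.82 SE in Casp2-depleted nuclei. Across the members 64 were lower at P14 in both genotypes and 3, Cox4i2, Ndufs5 and Uqcr10, were above 0 in both. None of these 3 passed the test, and Uqcr10 had reads in a single P14 library of each genotype.

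The core of complex III and the remaining catalytic genes of complex V varied between the P14 libraries. Uqcrc1 and Uqcrc2, the core proteins of complex III, had 24.7, 2.24 and 0 CPM and 68.4, 5.23 and 0 CPM at P14 in control nuclei, with the same library highest. Uqcrfs1 had reads in 4 libraries only. Atp5f1a, the alpha subunit, had 71.9, 0 and 0 CPM at P14 in control and 62.5, 10.7 and 0 in Casp2-depleted nuclei (adjusted p = 0.404 and 0.535 against P7). Of the genes for the c ring, Atp5mc1 had no read at P14 in control, Atp5mc2 had all its P14 control reads in 1 library (106 CPM), and Atp5mc3 likewise (19.4 CPM). Atp5if1, the inhibitor that binds ATP synthase at low pH, had 15.1 to 73.7 CPM at P7 and 0, 0.747 and 0 at P14 in control (log2 fold change -6.91 ± 2.58 SE, adjusted p = 0.177), but 34.4 CPM in P14 Casp2-depleted replicate 2.

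The isoform pairs of complex IV did not change in a way that held over libraries. Cox6a2, the heart and skeletal muscle form, took 27.0% of the pooled Cox6a reads at P1, 48.3% at P7 and had no reads at P14 in control nuclei, and took 24.1, 55.0 and 71.7% in Casp2-depleted nuclei. In single P7 control libraries the share ran from 6.50 to 65.3%, and at P1 from 0 to 88.6%. The share of 71.7% at P14 rests on 76 reads of Cox6a2 in 2 libraries and 30 reads of Cox6a1 in the other. Cox6a2 lies within Itgad on the opposite strand. Cox4i2, the form linked to low oxygen, took 35.0, 19.2 and 36.7% of Cox4i reads in control and 28.0, 17.8 and 40.9% in Casp2-depleted nuclei from P1 to P14, with single P14 Casp2-depleted libraries at 96.2, 100 and 1.82%.

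Cox7a1, the muscle form of subunit 7a, took 0% of the pooled Cox7a1 and Cox7a2 reads at P1, 15.2% at P7 and 100% at P14 in control, the last from 26 reads of 1 library. In Casp2-depleted nuclei it took 14.4% at P1 and 12.1% at P7, and neither gene had reads at P14. Cox8b, the muscle form of subunit 8 in rodents, took 0, 5.14 and 0% of the Cox8 reads in control, and 16.9 and 5.98% at P1 and P7 in Casp2-depleted nuclei. Cox6b2, a testis form, stayed at 2.16% or less of the Cox6b reads in every group. Cox7a2l, which helps join complexes III and IV, fell short of the threshold in control (9 reads at P14, log2 fold change -4.95 ± 1.64 SE, adjusted p = 0.092).

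Cox6b1 and Cox7c are further small subunits of complex IV. Cox6b1 had 41.7, 142, 46.3 and 78.6 CPM at P7 and 42.3, 16.4 and 0 at P14 in control nuclei, and 97.0, 161, 81.7 and 140 CPM against 23.2, 0 and 0 in Casp2-depleted nuclei. The drop in Casp2-depleted nuclei came close to the threshold (log2 fold change -3.95 ± 1.26 SE, adjusted p = 0.0593, or 0.0486 with the replicate number as a block). Cox7c had 62.6 to 130 CPM at P7 and 31.4 to 54.3 CPM at P14 in control (adjusted p = 0.616), and it was the only member whose P14 groups did not overlap between genotypes, lower in Casp2-depleted nuclei (2.15% of all genes were). Cox4i1 and Cox5a, subunits close to the catalytic core, overlapped between P7 and P14 in both genotypes, and Cox5b had 0 reads at P14 in both (adjusted p = 0.256 in control and 0.223 in Casp2-depleted nuclei).

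From P1 to P14 most members were below 0 in both genotypes, and whether this step differed between genotypes was not tested. In Casp2-depleted nuclei 72 of 80 members were below 0 (57.3% of all genes) and 5 were called, all lower (1.92% of all genes were called lower). They were Sdha (at least 164-fold lower), Atp5f1b (at least 101-fold), Cox8a (at least 59.5-fold), Uqcrq (at least 50.9-fold, adjusted p = 0.047, or 0.161 with the replicate number as a block) and Atp5f1c (log2 fold change -5.54 ± 1.22 SE, adjusted p = 0.000981, or -4.82 without P14 replicate 4). Sdha had 239, 0, 0 and 135 CPM in the P1 libraries, so that 2 of them were at 0 like the P14 libraries and the groups overlapped, and its bound was at least 83.6-fold without P1 replicate 1. Without P1 replicate 4 the bounds were at least 65.3-fold for Atp5f1b, 33.4-fold for Cox8a and 30.0-fold for Uqcrq, and none of these 3 was called. In control nuclei 55 of 80 were below 0 (55.7%), and edgeR called 0 members (0.319% of all genes), with 18 lower (9.09%) and 1 higher (2.36%) at an unadjusted p under 0.05. DESeq2 called 4 and limma-voom 2 members lower there (2.07 and 0.952% of all genes). Without P1 Casp2-depleted replicate 4, which had the highest OXPHOS sum at P1, or without P14 Casp2-depleted replicate 3 or 4, 2 members were called in Casp2-depleted nuclei (0.9, 1.01 and 0.848% of all genes).

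Between genotypes the OXPHOS genes did not differ by the test on any day. At P1 60 of 80 members were higher in Casp2-depleted nuclei (52.4% of all genes), with a summed log2 ratio of 0.49 and overlapping groups. edgeR called 0 members (0.0% of all genes), 2 were higher at an unadjusted p under 0.05 (3.08%), and DESeq2 and limma-voom called 0 (0.516 and 0.241%). Ndufb1 and Ndufs5 separated the genotypes at P1, both lower in Casp2-depleted nuclei (2.27% of all genes did so). With the fraction of reads outside genes as a covariate, 41.2% of the members were higher at P1 (46.0% of all genes), and with all 24 libraries 28.0% were (50%).

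At P7 27 of 80 members were higher in Casp2-depleted nuclei (48.1% of all genes), with a summed log2 ratio of -0.27. edgeR called 0 members (0.0% of all genes), 0 had an unadjusted p under 0.05 (2.03% of all genes higher and 2.19% lower), and DESeq2 and limma-voom called 0 (0.123 and 0.0%). Ndufa9, Ndufb10, Ndufs3 and Uqcrc1 were lower without overlap (0.943% of all genes were). Ndufa9, for example, had 37.0, 38.1, 41.1 and 32.9 CPM in control and 25.2, 8.70, 0 and 0 CPM in Casp2-depleted libraries (log2 fold change -2.12 ± 1.82 SE, adjusted p = 1.0). Without P7 control replicate 1, the library with the highest OXPHOS sum of that day, 52.5% of the members were higher (49.8% of all genes).

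At P14 31 members were higher (43.7% of all genes) and 32 lower (41.7%) in Casp2-depleted nuclei, and 17 had no reads in either group. With the replicate number as a block 50 of 80 members were higher (53.0% of all genes), and with the fraction of reads outside genes as a covariate 50 of 80 also were (55.5%). edgeR called 0 members (0.167% of all genes), with 9 higher (6.31%) and 8 lower (6.52%) at an unadjusted p under 0.05, DESeq2 called 4 (3.2%) and limma-voom 0 (0.57%). Leaving out P14 control replicate 2 gave 2 calls (0.823%). In the edgeR fit of the 21 libraries the strongest member was Atp5f1b, which was not called (adjusted p = 0.0757). All its 153 control reads lay in 1 library, and it had 0 in Casp2-depleted nuclei. The interaction of genotype with the step from P7 to P14 called 0 of 80 members with edgeR (0.0245% of all genes), with 7 higher (5.02%) and 5 lower (4.73%) at an unadjusted p under 0.05. DESeq2 called 1 (1.21%) and limma-voom 0 (0.0295%). The step from P7 to P14 was therefore not shown to differ between genotypes for any member by edgeR, and the calls made in a single genotype are not evidence of such a difference.

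Of other genes of the pathway, most enzymes of the TCA cycle, which supplies NADH and succinate, were not higher at P14 than at P7. Of 16 enzymes 3 in control and 2 in Casp2-depleted nuclei were higher, against 35.2 and 37.3% of all genes. Idh3a, Idh3g and Ogdh were called lower in control nuclei, and Cs, Idh3a and Pdhb in Casp2-depleted nuclei. Of all genes 1.87% were called lower in control and 2.82% in Casp2-depleted nuclei, and these shares also stand beside the calls that follow. Among the 14, 3, 5, 15 and 5 tested assembly factors of complexes I to V only Uqcc1, needed for complex III, was called (log2 fold change -3.21 ± 0.94 SE in control, adjusted p = 0.0393). In the same order of complexes 3, 2, 1, 2 and 1 of them were higher at P14 in control and 5, 0, 1, 2 and 0 in Casp2-depleted nuclei. For complex II this was 2 of only 3 tested factors in control (median log2 fold change 1.36). Of the 7 electron carriers and subunits that the symbol rule leaves out, such as Cycs and Cyc1, 6 were tested and 0 called. By edgeR 0 and 1 of them were lower at an unadjusted p under 0.05 in control and Casp2-depleted nuclei (12.9 and 13.8% of all genes). Mitochondrially encoded subunits were read at 6 of 13 genes, the other 7 being listed at 0. Their summed level had a mean of 1368 CPM at P7 and 671 at P14 in control nuclei. In Casp2-depleted nuclei the means were 1475 and 544 CPM, and the days overlapped in both genotypes. The part of RNA from outside the nucleus in the OXPHOS levels was not tested. From P7 to P14 mt-Nd1 was called lower in Casp2-depleted nuclei (log2 fold change -2.03 ± 0.57 SE, adjusted p = 0.0187). Of 81 tested cytosolic ribosomal protein genes 21 in control and 23 in Casp2-depleted nuclei were higher at P14. In each genotype 1 of the 81 was called lower (1.87 and 2.82% of all genes).

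From P7 to P14 members with short genes had lower fold changes than members with long genes, as had protein-coding genes at large. The median log2 fold change from P7 to P14 in control nuclei was -3.62 for the 20 members of up to 5 kb, -4.64 for the 26 of 5 to 10 kb, -2.39 for the 17 of 10 to 20 kb and -1.41 for the 17 longer ones. Protein-coding genes of the same length classes had medians of -3.36, -2.74, -1.90 and -0.66. In Casp2-depleted nuclei the members gave -3.36, -3.72, -1.45 and -1.43, and all protein-coding genes -3.47, -2.73, -1.83 and -0.56. The members' median was below that of all protein-coding genes in each length class in control nuclei, but in Casp2-depleted nuclei only in the 5 to 10 kb and the longest class. From P1 to P7 in control nuclei the order was reversed. The members then gave 1.51, 1.41, 1.18 and 0.54 from the shortest to the longest class, and all protein-coding genes 1.16, 1.01, 0.79 and 0.24. The part of gene length in either step was not tested.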

How the data were processed

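The deposited values are raw read counts per Ensembl gene, made by the authors from QuantSeq 3′ mRNA-Seq FWD libraries (low-input, single-end) with FastQC 0.11.8, cutadapt 4.0, STAR 2.6.1e against GRCm39 and HTSeq 2.0.3 over full genes, exons and introns together. The strand setting and any use of molecular identifiers are not given in the sources used here. Summary lines of HTSeq were kept out of library totals, and reads on no gene made up 34.3 to 76.1% of uniquely placed reads in the 21 libraries used, which held 891817 to 2924097 reads on genes. The 3 libraries that the study excluded were left out and enter an alternative. Gene names came from GENCODE vM39, which named 56236 of 56923 identifiers.

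The 20368 genes with 10 or more reads over the libraries used, seen in 3 or more of them, were fitted with edgeR 4.0.16 (R 4.3.3; TMM, robust quasi-likelihood test) on 6 group means with 15 residual degrees of freedom. Calls needed an adjusted p (Benjamini-Hochberg, over all tested genes) under 0.05 together with a log2 fold change beyond 1 in either direction. SE is the fold change over the square root of F. Folds against a group at 0 reads are bounds from a floor of 3 reads over the group and cover counting error only. The test was also run on simulated data, and the outcome is not reported here. Alternatives were DESeq2 1.42.0, limma-voom 3.58.1, other filters and scalings, all 24 libraries, a replicate block, the fraction of reads outside genes as a covariate, and each library left out in turn.

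The deposited file names call each replicate number a batch. Correlations of same-numbered deviations were 0.093, -0.058 and 0.093 at P1, 0.179, 0.030, 0.042 and 0.076 at P7, and 0.019 and 0.021 at P14. Those of differently numbered deviations ran from -0.135 to 0.096 at P1, from -0.133 to 0.082 at P7 and from -0.025 to 0.0082 at P14. The main fit held no term for the replicate number.

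Named genes were every called member, the complex IV isoform pairs with Cox7a2l, Ndufa4 and Ndufa4l2, a list of catalytic core genes, the 2 members of highest mean CPM per complex, and per comparison the 3 largest fold changes among members with at least 20 reads whose groups did not overlap. Ndufs4, Ndufa8, Uqcr10 and the genes in lists of detected members were named after their values were seen. The members, gene lists and rules were chosen with earlier results of these data known. Some genes are not reported here by name.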

Additional observations from a re-analysis of the deposited data

Results flagged for a closer look

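Values of a named gene or of a summed level were compared within each group of 4 libraries, for genes with reads in all 4. Among 111 such sets of 4 values 5 held a value far from the other 3. Chance gives about 5% of sets, and the sets share the same libraries. Atp5f1b had 104 CPM in P7 control replicate 1, against 16.5, 17.6 and 25.2 CPM. Atp5mc2 had 30.3 CPM in the same library, against 0.719, 0.748 and 5.22 CPM. Ndufb1 had 27.7 CPM in P7 control replicate 4, against 72.4, 73.6 and 74.1 CPM. Uqcrc2 had 71.2 CPM in P7 control replicate 2, against 26.2, 28.1 and 31.8 CPM. Atp5mg had 154 CPM in P1 Casp2-depleted replicate 4, against 13.5, 21.7 and 33.6 CPM.

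The left-out P1 control replicate 1 entered only the comparisons with all 24 libraries. It gave 0.762% of its reads to OXPHOS genes, against 0.144, 0.208 and 0.233% in the other P1 control libraries.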

How the results depend on the processing

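The count of called members depended on the tool and the scaling. Shares of all genes called by the same fit stand in parentheses. From P7 to P14, in control and Casp2-depleted nuclei, DESeq2 called 13 and 14 members (5.07 and 5.82%), limma-voom 16 and 16 (5.65 and 4.08%), edgeR on all 24 libraries 0 and 3 (0.17 and 0.602%), edgeR without TMM factors 0 and 3 (0.594 and 1.22%), and edgeR with the fraction of reads outside genes as a covariate 0 and 0 (0.187 and 0.722%). From P1 to P14, DESeq2 called 4 (2.55%) and limma-voom 2 (1.01%) in control nuclei, and in Casp2-depleted nuclei DESeq2 called 13 (5.82%), edgeR on all 24 libraries 1 (0.296%), without TMM factors 2 (0.815%) and with that covariate 1 (0.466%). DESeq2 called 4 members between genotypes at P14 (3.2%) and 1 in the interaction from P7 to P14 (1.21%). Leaving out single libraries gave 0 to 3 (0.877 to 2.47%) and 3 to 7 calls (1.27 to 3.17%) from P7 to P14, 0 to 2 (0.143 to 0.704%) and 2 to 6 (0.863 to 2.51%) from P1 to P14 (control and Casp2-depleted), and 0 to 2 between genotypes at P14 (0.0936 to 0.823%).

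With the replicate number as a block, edgeR called 3 and 6 members from P7 to P14 (2.18 and 2.34%), and 0 and 4 from P1 to P14 (0.319 and 1.36%), in control and Casp2-depleted nuclei. In Casp2-depleted nuclei the block ended the calls of Cox7a2 from P7 to P14 and of Uqcrq from P1 to P14 and added that of Cox6b1 from P7 to P14 (adjusted p = 0.0486). It changed no other call of a member.

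As plain shares of reads, the log2 ratios from P7 to P14 were -0.67 (control) and -0.63 (Casp2-depleted) for all members, -0.64 and -0.58 for complex I and -0.44 and -0.26 for complex V, and in Casp2-depleted nuclei -0.24 for complex II and -1.49 for complex IV. Complex II had 0.29 from P1 to P7 in control. With DESeq2 size factors all members had -1.08 from P7 to P14 in Casp2-depleted nuclei. With all 24 libraries the ratios from P1 to P7 in control nuclei were -0.0365 for all members and 0.15, -0.0607, -0.30, 0.0116 and -0.24 for complexes I to V. Those between genotypes at P1 were -0.33 for all members, -0.16 for complex II, -0.39 for complex IV and -0.35 for complex V. From P7 to P14 they were -0.83 for complex I in Casp2-depleted nuclei and 0.17 and -0.55 for complexes III and V in control. Complex II had -1.67 from P1 to P14 in control, and between genotypes at P14 complexes I and III had 0.38 and -2.63. With all 24 libraries 3 genes changed direction, Atp5mg from P7 to P14 (1.54) and Cox7a1 and Ndufs6 from P1 to P7 (-0.78 and -0.24), all in control nuclei. The cause of these changes was not tested.

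Leaving out single libraries moved the ratios of the smaller complexes most, with P14 control replicate 1 at 1 end of each range. In control nuclei it gave -2.37 to -0.79 for complex II, -3.69 to -1.28 for complex III and -2.36 to -1.21 for complex IV from P7 to P14, and -2.50 to -0.069 for complex III from P1 to P14. Between genotypes at P14 it gave -0.97 to 0.615 for complex II and -1.06 to 1.56 for complex III.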
